A study of Mus musculus with 12 samples.

Results

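The neuronal splicing regulators were 10 RNA-binding proteins, Rbfox1, Rbfox2, Rbfox3, Nova1, Nova2, Ptbp1, Ptbp2, Srrm4, Celf4 and Mbnl2, taken by gene symbol from the 19268 genes of the table, in which all 10 had a row. The RNA came from forebrain, without the olfactory bulb, and the animals were C57BL/6J males, either juvenile at P25 (25 days after birth) or adult at P60 (60 days after birth). Knock-out (KO) animals carried on both chromosomes a Shank3 allele that lacks several internal exons, and wild-type (WT) animals of the same age were the controls. Shank3 encodes a scaffold of excitatory synapses. This gave P25-WT, P25-KO, P60-WT and P60-KO, with 3 mice and 3 libraries each.

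These proteins decide which exons of a primary transcript are kept, and neurons use them to make protein isoforms that other tissues do not make. RBFOX, NOVA, CELF and MBNL proteins bind short RNA motifs beside an exon and promote or block its inclusion depending on where they sit, while SRRM4 activates very short neuronal exons. PTBP1 represses neuronal exons in non-neuronal cells, and its decline in the neuronal lineage lets PTBP2 appear, itself a repressor whose decline marks later maturation.

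Values are normalized counts, the count-scale estimates that the authors had adjusted for gene- and library-specific factors. Library sums were 30568259 to 32348554 normalized counts and 19183 to 19223 genes were above 0 in a library. The targeted gene fitted the labels in every library: Shank3 stood at 4891 to 5729 in P25-KO against 10254 to 11683 in P25-WT, and at 4535 to 5186 in P60-KO against 8936 to 10310 in P60-WT. One library, P25-WT replicate 2, stood apart both for the splicing regulators and over all genes. It was the lowest of its group for 9 of the 10 regulators and the lowest of the 6 P25 libraries for 8 of them. Over all 17594 genes it was the lowest P25 library for 29.4% and the highest for 30.9%. The other P25 libraries were each the lowest for 11.4% to 19.8% and the highest for 10.3% to 20.5%.

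Differences are log2 fold changes with their standard error, from limma on log2(normalized count + 1), and a gene is said to rise or fall where its Benjamini-Hochberg adjusted p over all genes tested was under 0.05. Over both genotypes, with 6 libraries at each age, 5 of the 10 regulators changed between P25 and P60, 1 lower and 4 higher, against 37.6% of all 17594 genes tested. Nova2 fell by 33.2%, and Mbnl2, Rbfox2, Rbfox1 and Ptbp2 rose by 27.7%, 19.0%, 14.1% and 12.6%. Ptbp1, Srrm4, Rbfox3, Nova1 and Celf4 did not pass the test. These calls depended in part on processing. With each library's trend over transcript length and GC content removed, Rbfox1 and Ptbp2 did not pass, whereas Rbfox3, Ptbp1 and Nova1 did (values below). Among all genes 18.3% rose and 19.3% fell. In none of the genotype comparisons did any of the 10 pass.

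The 250 bases before the start of 3 genes are printed because 2 of them, Nova2 and Mbnl2, had the largest fall and the largest rise with age, and the third, Srrm4, did not pass the test. The sequences are RefSeq promoters, read 5′ to 3′ on the strand of the gene, and a match to GGGCGG on either strand (CCGCCC on the opposite one) is in capitals.
Nova2 (GRCm38.p6, chr7:18925638-18925887, plus strand): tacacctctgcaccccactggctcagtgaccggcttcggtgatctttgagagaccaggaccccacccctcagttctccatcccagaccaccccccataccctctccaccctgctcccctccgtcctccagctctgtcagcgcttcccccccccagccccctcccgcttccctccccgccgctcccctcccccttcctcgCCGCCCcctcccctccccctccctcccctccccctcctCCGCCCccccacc
Mbnl2 (GRCm38.p6, chr14:120275419-120275668, plus strand): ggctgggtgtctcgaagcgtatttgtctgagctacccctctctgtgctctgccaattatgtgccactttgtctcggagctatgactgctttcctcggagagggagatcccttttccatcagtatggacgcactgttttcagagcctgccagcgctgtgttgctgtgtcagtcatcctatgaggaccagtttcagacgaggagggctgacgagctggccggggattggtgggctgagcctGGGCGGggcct
Srrm4 (GRCm38.p6, chr5:116591818-116592067, minus strand): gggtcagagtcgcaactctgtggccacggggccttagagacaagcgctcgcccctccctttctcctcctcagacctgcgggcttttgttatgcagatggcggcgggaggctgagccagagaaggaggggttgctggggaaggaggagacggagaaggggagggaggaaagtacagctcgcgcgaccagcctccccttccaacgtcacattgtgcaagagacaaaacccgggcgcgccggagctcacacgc

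The Nova2 window held 2 matches, the Mbnl2 window 1 and the Srrm4 window 0, and GGGCGG stood in 32.9% of the same windows over 27025 genes. None of the 3 windows shown held, on either strand, an E-box (CACGTG, in 6.05% of all windows), a TATA box (TATAAA, in 13.0%) or a cAMP response element (TGACGTCA, in 1.62%). The number of CG dinucleotides was 10, 10 and 17, against a median of 6 over all genes. Of the 10 regulators 8 had a RefSeq promoter entry. Among the windows not shown, Ptbp2 held 6 matches to GGGCGG and Ptbp1 held 1 CACGTG. For these 2 genes the RefSeq start differs from the gene start given below. The Ptbp2 window (chr3:119783389-119783638) lies inside the gene span, and the Ptbp1 window runs past the gene start, to chr10:79854431.

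Nova2 (chr7:18925888-18965319, plus strand, coordinates here and below in GRCm38 with GENCODE release M21) encodes the NOVA protein of the cerebral cortex, a KH-domain protein that binds YCAY clusters. Its normalized counts were 4937, 4221 and 4816 in P25-WT and 4575, 5062 and 4737 in P25-KO. They were 3318, 3032 and 3192 in P60-WT and 3029, 3278 and 3074 in P60-KO. All 6 P60 libraries lay below all 6 P25 libraries, with means of 3154 ± 127 and 4725 ± 298 (SD, n = 6). The log2 fold change was -0.58 ± 0.05 (adjusted p = 1.26e-06, limma), which placed Nova2 at rank 1407 of 17594 by size of change. The fall was -0.55 ± 0.08 within WT (adjusted p = 0.00920) and -0.62 ± 0.06 within KO (adjusted p = 0.000272). The call within WT was lost without P25-WT replicate 1 (adjusted p = 0.0509), without P60-WT replicate 3 (adjusted p = 0.0646) and without the intensity trend of the variance (adjusted p = 0.0605).

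Nova1 (chr12:46694517-46818929, minus strand), the paralog best known from brainstem and spinal cord, had 2174, 2117 and 2251 normalized counts in P25-WT and 2247, 2071 and 1953 in P25-KO. It had 1995, 2304 and 2036 in P60-WT and 2065, 2267 and 2019 in P60-KO, so that the ages overlapped throughout. The log2 fold change with age was -0.01 ± 0.05 (95% CI -0.13 to 0.10). With the trend on transcript length and GC content removed, Nova1 did pass, as lower at P60 (value below). The paralogs were also set against each other as a ratio within each library, which a scaling factor for the library does not change but a correction for transcript length and GC content does. The log2 ratio of Nova2 to Nova1 was 1.09 ± 0.09 in P25-WT, 1.20 ± 0.15 in P25-KO, 0.59 ± 0.18 in P60-WT and 0.56 ± 0.04 in P60-KO (SD, n = 3). It dropped by 0.57 between the ages, by 0.50 within WT and by 0.63 within KO, and the ages did not overlap. A two-sided exact permutation test over libraries within genotype gave p = 0.005, the smallest value the 400 arrangements allow, and 0.04 after Benjamini-Hochberg adjustment over the 8 ratio tests. With the length and GC trend of each library removed, an alternative chosen for the ratios after seeing the data, the drop was of a smaller size (-0.28, exact permutation p = 0.005, adjusted 0.04), and it was -0.21 within WT and -0.35 within KO.

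**Figure D1:**
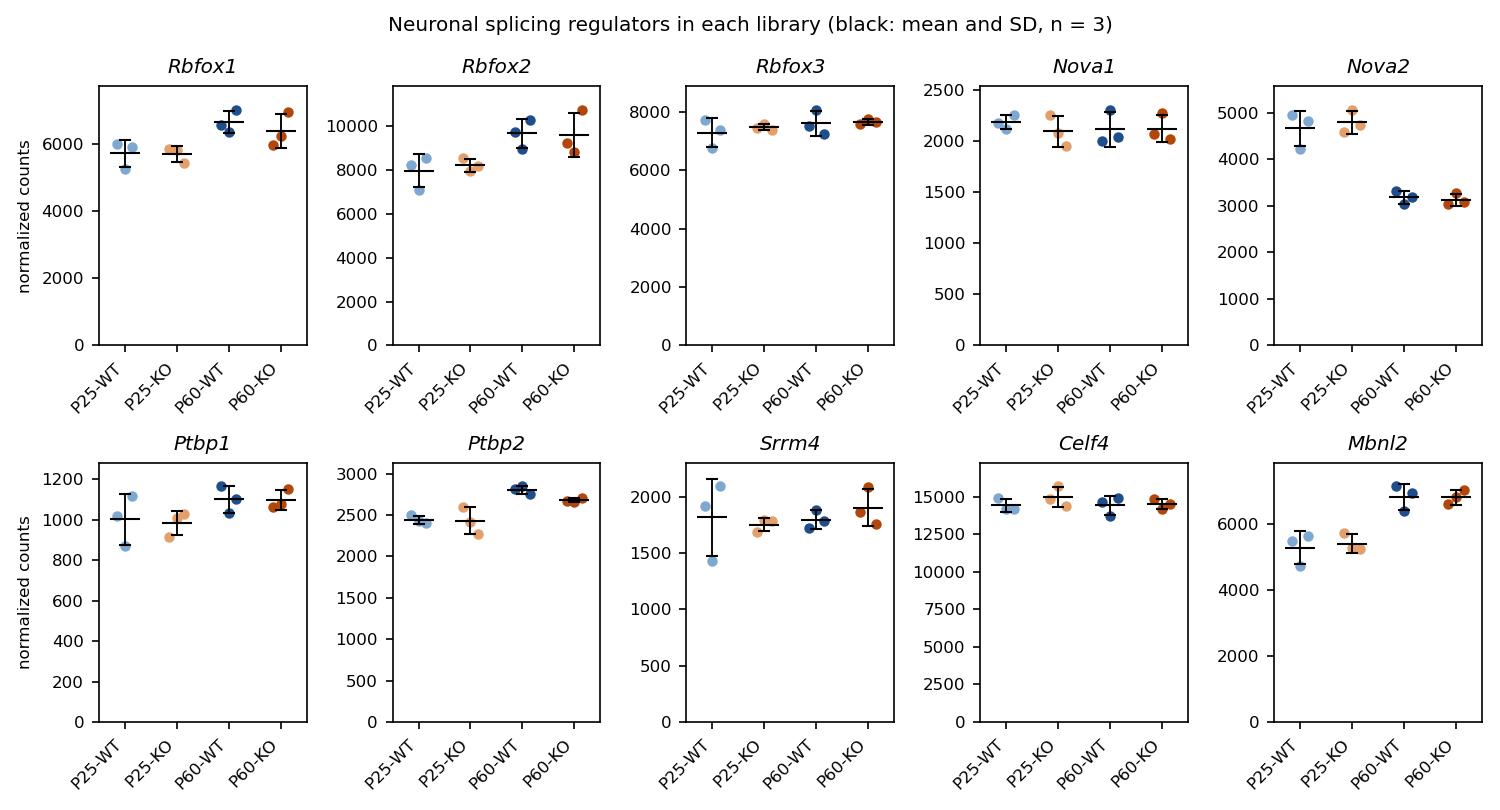
Normalized counts of each regulator (vertical axis, from 0) in P25-WT, P25-KO, P60-WT and P60-KO (horizontal axis), with 1 point per library and the mean and SD of 3 libraries in black. Nova2 lies between 4221 and 5062 at P25 and between 3029 and 3318 at P60, and Mbnl2 between 4710 and 5724 at P25 and between 6386 and 7144 at P60.

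Mbnl2 (chr14:120275669-120431697, plus strand) encodes the muscleblind protein that predominates in brain and promotes adult splicing patterns. Its normalized counts were 5493, 4710 and 5633 in P25-WT, 5724, 5256 and 5230 in P25-KO, 7144, 6386 and 6923 in P60-WT, and 6586, 6806 and 7027 in P60-KO. Every P60 library was above every P25 library. The log2 fold change was 0.35 ± 0.05 over both genotypes (adjusted p = 0.000111), 0.37 ± 0.09 within WT (adjusted p = 0.0354) and 0.33 ± 0.05 within KO (adjusted p = 0.00332). Within WT the call was lost when P25-WT replicate 1 or any 1 of the 3 P60-WT libraries was left out, with adjusted p up to 0.152, and without the intensity trend (adjusted p = 0.109). With the trend on transcript length and GC content removed, the value was 0.18 over both genotypes (adjusted p = 0.00345) and the call within WT was lost (0.18, adjusted p = 0.133). Nova2 and Mbnl2 were the 2 of 10 regulators that passed within WT, where 8.65% of all genes did (3.66% higher and 4.99% lower), and also the 2 of 10 within KO, where 20.7% did (9.37% higher and 11.3% lower).

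Of the RBFOX proteins, which bind UGCAUG, Rbfox2 (chr15:77078990-77307004, minus strand), made in many tissues, had 8245, 7108 and 8536 normalized counts in P25-WT and 8538, 7942 and 8196 in P25-KO. At P60 it had 9751, 8946 and 10299 in WT and 9231, 8836 and 10756 in KO, all above the P25 libraries. The log2 fold change was 0.25 ± 0.06 (adjusted p = 0.00407). Rbfox1 (chr16:5885355-7411526, plus strand), made in neurons, heart and muscle, had 6004, 5271 and 5910 in P25-WT, 5863, 5828 and 5441 in P25-KO, 6566, 6372 and 7030 in P60-WT, and 5983, 6251 and 6968 in P60-KO. The lowest P60 library lay just below the highest P25 library. Its log2 fold change was 0.19 ± 0.05 (adjusted p = 0.00753), and with the trend on transcript length and GC content removed it was 0.09 and did not pass (adjusted p = 0.135).

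Rbfox3 (chr11:118489762-118911597, minus strand) encodes NeuN, the nuclear antigen used to label most mature neurons. Its normalized counts ran from 6767 to 7721 in P25-WT, 7388 to 7595 in P25-KO, 7244 to 8076 in P60-WT and 7576 to 7763 in P60-KO, with wide overlap of the ages. The log2 fold change was 0.05 ± 0.04 (95% CI -0.04 to 0.13, adjusted p = 0.361). With the trend on transcript length and GC content removed, Rbfox3 did pass, as higher at P60 (value below). The log2 ratio of Rbfox3 to Rbfox1 was 0.35 ± 0.02 in P25-WT, 0.39 ± 0.05 in P25-KO, 0.19 ± 0.15 in P60-WT and 0.26 ± 0.11 in P60-KO. Between the ages it differed by -0.14 (exact permutation p = 0.015, adjusted 0.06), short of the threshold after adjustment. With the length and GC trend removed the sign turned, to 0.09 (exact permutation p = 0.1, adjusted 0.2), so no direction is given for this ratio. For Rbfox1 to Rbfox2 the log2 ratio differed by -0.06 between the ages (exact permutation p = 0.11, adjusted 0.293), and by -0.12 with the trend removed (exact permutation p = 0.025, adjusted 0.0933).

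**Figure D2:**
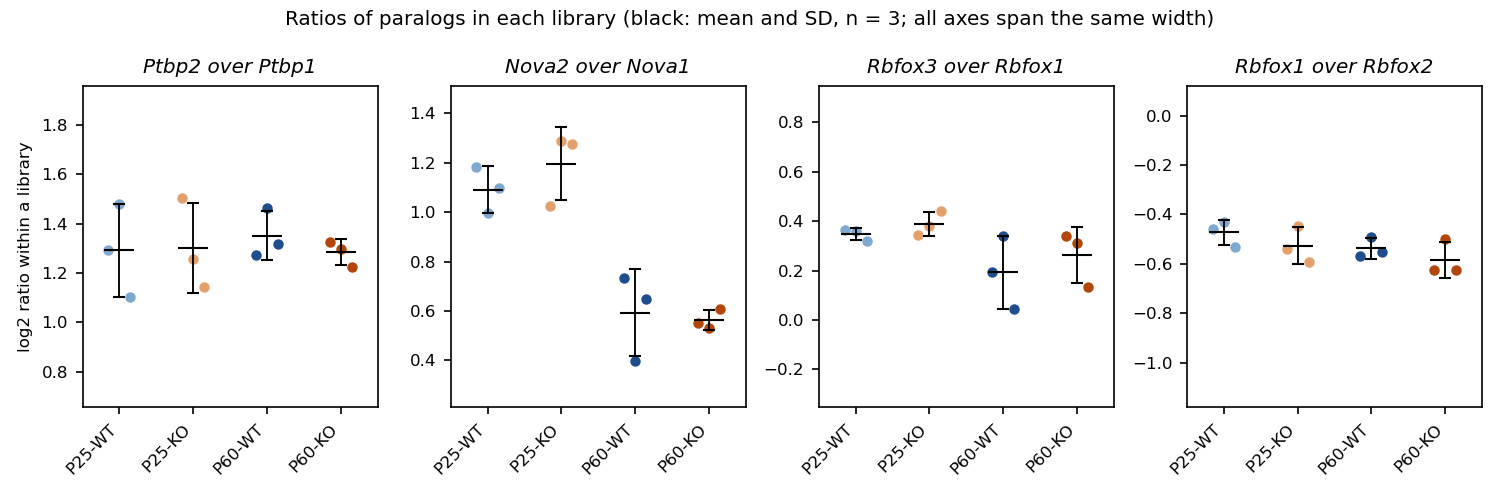
Log2 ratio of 2 paralogs within each library (vertical axes, all of the same width but at different levels) in the 4 groups, with 1 point per library and the mean and SD of 3 libraries in black. The Nova2 to Nova1 ratio runs from 0.995 to 1.29 at P25 and from 0.40 to 0.73 at P60, whereas the ages overlap for Ptbp2 to Ptbp1.

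Ptbp2 (chr3:119718742-119784466, minus strand) had 2498, 2424 and 2403 normalized counts in P25-WT, 2596, 2418 and 2271 in P25-KO, 2819, 2849 and 2752 in P60-WT, and 2674, 2652 and 2699 in P60-KO. The ages did not overlap, and the log2 fold change was 0.17 ± 0.04 (adjusted p = 0.00465). It was 0.04 and did not pass with the length and GC trend removed (adjusted p = 0.377). Ptbp1 (chr10:79854427-79864771, plus strand) had 1019, 868 and 1118 in P25-WT, 915, 1011 and 1027 in P25-KO, 1167, 1034 and 1103 in P60-WT, and 1065, 1078 and 1154 in P60-KO. The ages overlapped, and its log2 fold change of 0.15 ± 0.06 did not pass (adjusted p = 0.0734). It did pass with every library scaled to the same total (0.19, adjusted p = 0.0287) and without P25-WT replicate 3 (0.19, adjusted p = 0.0242). Ptbp1 also passed with the length and GC trend removed (value below). The log2 ratio of Ptbp2 to Ptbp1 was 1.29 ± 0.19 in P25-WT, 1.302 ± 0.18 in P25-KO, 1.35 ± 0.10 in P60-WT and 1.28 ± 0.05 in P60-KO, and differed by 0.02 between the ages (exact permutation p = 0.835). With the length and GC trend removed the difference was -0.17 (exact permutation p = 0.035, adjusted 0.0933), so its sign depended on that correction. Of the 31-base words in Ptbp1 transcripts, 11.5% also occur in another gene, chiefly Gm4900. Ptbp1 also overlaps Plppr3 and E130317F20Rik on the opposite strand, as Rbfox2 overlaps 1700109K24Rik, Mbnl2 overlaps Gm26679 and Srrm4 overlaps Srrm4os. Nova1 (Gm33869), Ptbp2 (Gm43300 and Gm42664) and Srrm4 (Gm42853) overlap genes of the table on their own strand. Strand use in the counting is not stated, and how reads of overlapping genes were split was not tested.

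Srrm4 (chr5:116439275-116591817, minus strand), the activator of neuronal microexons, had 1923, 1434 and 2095 normalized counts in P25-WT, 1688, 1791 and 1782 in P25-KO, 1723, 1887 and 1781 in P60-WT, and 1862, 2089 and 1762 in P60-KO. The P25-WT libraries alone spanned the values of all other libraries. Its log2 fold change with age was 0.06 ± 0.08 (95% CI -0.11 to 0.23, adjusted p = 0.590), and it turned to -0.01 without P25-WT replicate 2. Celf4 (chromosome 18, minus strand), a CELF protein of excitatory neurons that also regulates mRNA stability and translation, ran from 14176 to 14926 in P25-WT, 14379 to 15708 in P25-KO, 13721 to 14892 in P60-WT and 14157 to 14862 in P60-KO. The ages overlapped, with a log2 fold change of -0.02 ± 0.04 (95% CI -0.10 to 0.06, adjusted p = 0.663). Both Nova1 and Celf4 had small positive values, 0.03 and 0.02, with every library scaled to the same total.

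**Figure D3:**
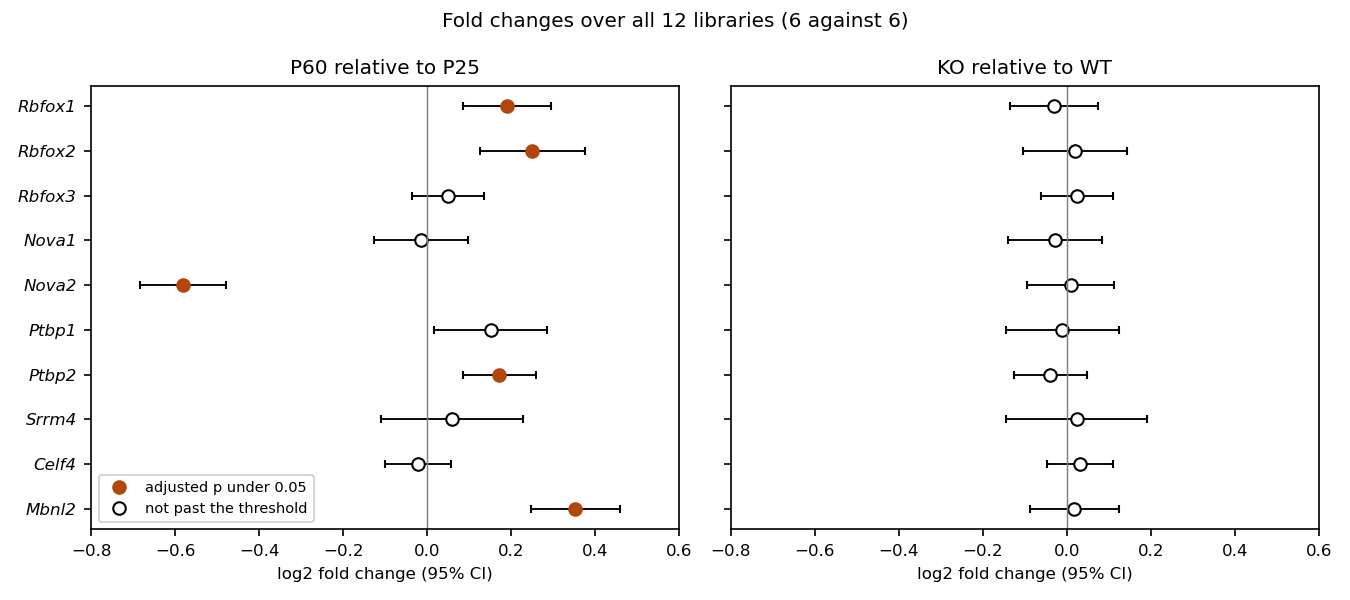
Log2 fold change of each regulator (horizontal axes) over all 12 libraries, P60 relative to P25 on the left and KO relative to WT on the right, with 95% CI as bars and filled points for an adjusted p under 0.05. On the left Nova2 lies at -0.58 and Mbnl2 at 0.35, and on the right all points lie between -0.04 and 0.03 with every interval crossing 0.

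By range rather than by test, 4 of the 10 regulators (Nova2, Mbnl2, Rbfox2 and Ptbp2) did not overlap between the 6 P25 and the 6 P60 libraries, 3 of them higher and 1 lower at P60, against 19.6% of all genes (8.79% higher and 10.8% lower). Within WT, 5 of 10 did not overlap between the ages (these 4 and Rbfox1), against 36% of all genes, and within KO 6 of 10, with Ptbp1 in addition, against 39.4%. The labels give no batch, and a batch that went with age and age itself cannot be told apart.

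Removing the trend over transcript length and GC content moved the age effects of several regulators. When the trend of log2 values over transcript length and GC content was taken out of each library, Nova2 (-0.53, adjusted p = 2.51e-07), Rbfox2 (0.22, adjusted p = 0.00134) and Mbnl2 (0.18, adjusted p = 0.00345) still passed. Rbfox1 (0.09, adjusted p = 0.135) and Ptbp2 (0.04, adjusted p = 0.377) no longer passed. Rbfox3 (0.18, adjusted p = 0.000880), Ptbp1 (0.21, adjusted p = 0.0122) and Nova1 (-0.25, adjusted p = 0.00424) passed with the trend removed, Rbfox3 and Nova1 under no other alternative. GC content ran from 38.5% for Nova1 to 58.6% for Rbfox3. With every library scaled to the same total, the median log2 fold change of all genes moved from 0.00 to 0.05 and the share of higher genes among those that passed from 48.7% to 59.7%, and the 5 regulators that had passed still did.

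**Figure D4:**
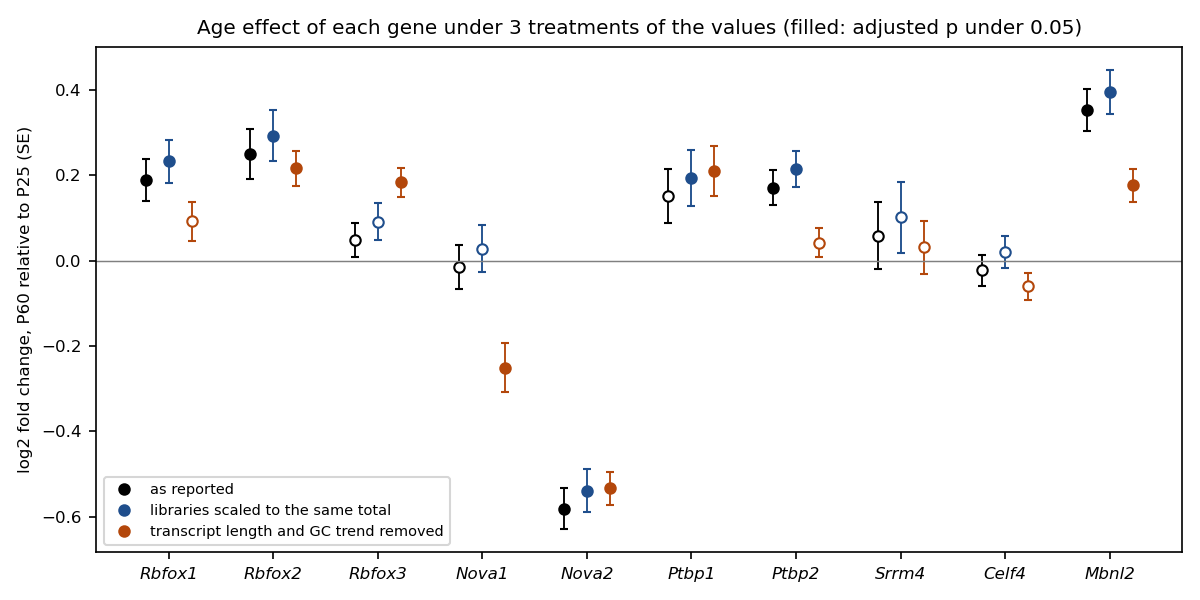
Log2 fold change of each regulator, P60 relative to P25 over both genotypes (vertical axis, bars are SE), as reported (black), with libraries scaled to the same total (blue) and with the trend of transcript length and GC content removed (orange), filled where the adjusted p was under 0.05. Nova2 stays between -0.58 and -0.53, while Nova1 moves from -0.01 to -0.25 and Ptbp2 from 0.17 to 0.04.

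The forebrain is a mixture of cell types, and in such bulk RNA fewer cells of a type and less RNA per cell cannot be told apart. Marker lists moved with age beside the regulators, and their counts are set against 18.3% of all genes higher and 19.3% lower at P60. All 8 of 8 oligodendrocyte markers were lower at P60 (log2 fold changes -1.50 to -0.74), with a summed level of 400102 to 517899 at P25 and 194783 to 222470 at P60. Of the oligodendrocyte precursor markers 5 of 6, of the astrocyte markers 6 of 8 and of the immature neuron markers 5 of 6 were lower, and 1 immature neuron marker was higher. Of 9 pan-neuronal markers 1 was higher and 3 lower, and their summed level was 170218 to 179077 at P25 and 167432 to 176077 at P60. Of the glutamatergic neuron markers 1 was higher and 3 lower of 7, and of the GABA interneuron markers 2 were higher and 2 lower of 8. The other lists had 1 lower of 8 striatal projection neuron markers, 2 lower of 8 microglia markers and 1 higher of 6 endothelial markers. No marker of any of the 10 lists had a value of 0 in a library. The part of these shifts in the age differences of the splicing regulators was not tested.

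Divided by the length of the longest coding transcript, in normalized counts per kb, Celf4 had the highest level, 3612 ± 108 in P25-WT and 3611 ± 155 in P60-WT (SD, n = 3). Rbfox3 followed (2314 ± 153 and 2415 ± 135), then Rbfox1 (1871 ± 130 and 2174 ± 110). Next came Mbnl2 (1160 ± 109 and 1498 ± 85.6) and Rbfox2 (1153 ± 109 and 1399 ± 98.5), whose ranges overlapped in all 4 groups. Ptbp2 had 646 ± 13.2 and 743 ± 13.0. Nova2 had 556 ± 45.8 in P25-WT, above Ptbp1 (316 ± 39.7), but at P60 its 380 ± 17.1 overlapped the 347 ± 20.9 of Ptbp1. Nova1 (305 ± 9.38 and 295 ± 23.5) and Srrm4 (243 ± 45.9 and 241 ± 11.1) were the lowest, and Nova1 overlapped Ptbp1 at P25 in both genotypes. The KO groups gave an order of the same kind, except that in P25-KO Ptbp2 and Nova2 also overlapped and Rbfox2 (1191 ± 43.4) stood just above Mbnl2 (1187 ± 61.1). The order depends on which transcript is used: with the median coding transcript length, Celf4 was first in both P25 groups but Rbfox2 was first and Celf4 second in both P60 groups, and Nova1 moved from place 9 to place 3 in P25-WT.

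The comparison of KO with WT asked whether loss of the Shank3 exons changed the regulators at either age. At P25, 0 of 10 passed, where 0.00571% of all genes tested did (1 gene, Shank3). The log2 fold changes lay between -0.06 (Nova1) and 0.05 (Celf4), and the 95% intervals, of which the widest was that of Srrm4, reached from -0.33 to 0.26, or -20.6% to 20.1%. No regulator had an unadjusted p under 0.05, against 1.36% of all genes, and none separated KO from WT by range, against 4.76% of all genes. Without P25-WT replicate 2 the values of Rbfox2, Rbfox3, Nova2 and Mbnl2 turned from positive to negative.

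At P60, again 0 of 10 passed, where 0.00568% of all genes did. The log2 fold changes lay between -0.07 (Ptbp2) and 0.08 (Srrm4), with 95% intervals between -0.20 and 0.25. Ptbp2 was the 1 regulator of 10 whose groups did not overlap, with 2652 to 2699 normalized counts in KO and 2752 to 2849 in WT, against 7.79% of all genes. Its difference of -0.07 ± 0.05 had an unadjusted p of 0.174 in limma and an adjusted p of 0.9995. Over both ages, with 6 KO and 6 WT libraries, 0 of 10 passed against 0.00568% of all genes, all 10 overlapped by range (0.0739% of all genes did not), the log2 fold changes were -0.04 to 0.03 and the 95% intervals ran from -0.15 to 0.19, or -9.60% to 14.2%.

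The genotype by age interaction asked whether the effect of the mutation differed between the ages. It passed for 0 of 10 regulators and 0% of all genes by limma, with 288 genes (1.64%) at an unadjusted p under 0.05. For the regulators the interaction was between -0.07 (Nova2) and 0.11 (Srrm4) on the log2 scale, and the smallest unadjusted p was 0.489. None of the paralog ratios passed between genotypes, with adjusted p of 0.32 to 0.817 by the exact permutation test within age. The comparisons of KO with WT and of P60 with P25 use the same 12 libraries in different pairs and are not independent.

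Other splicing genes, and genes whose transcripts the regulators act on, were read from lists of the pathway. Their counts are for age over both genotypes and stand against the same 37.6% of all genes. Of 23 paralogs and other tissue-enriched regulators 20 were tested, and 7 rose and 2 fell, with a median log2 fold change of 0.11 against 0.00 for all genes. Srrm3, a microexon activator related to Srrm4, rose by 0.33 ± 0.09, the CELF member Celf2 by 0.28 ± 0.05 and the neuronal ELAV-like Elavl4 by 0.23 ± 0.05. Qk, which encodes the quaking protein of glia, fell (-0.37 ± 0.04), as did Msi1, a musashi protein of neural progenitors (-0.19 ± 0.06).

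Among 17 SR proteins and coactivators, which bind exonic enhancers, 10 rose and 0 fell (median 0.20), led by Srrm1 (0.48 ± 0.06), Srsf1 (0.38 ± 0.06) and Srsf10 (0.36 ± 0.06). Of 24 hnRNP proteins, a family that includes many splicing repressors, 11 rose and 3 fell (median 0.11). Hnrnpm (0.38 ± 0.08), Hnrnpu (0.33 ± 0.06) and Hnrnph1 (0.31 ± 0.08) rose the most, and Raly (-0.23 ± 0.07), Hnrnpul1 (-0.15 ± 0.04) and Pcbp1 (-0.11 ± 0.04) were the 3 that fell. For Pcbp1 the value was 0.06 with the length and GC trend removed, and it failed the test in 8 of the 12 fits that left out 1 library.

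Of 44 core spliceosome proteins 8 rose and 10 fell (median 0.00). These counts moved with the fit. They became 7 and 5 without P25-KO replicate 3, 7 and 6 without P60-KO replicate 2, 6 and 5 without P60-KO replicate 3, 8 and 6 without P60-WT replicate 2, 6 and 6 without P60-WT replicate 3, and 8 and 6 without the intensity trend. Sf3b1, which holds the branch point in the U2 snRNP, rose by 0.39 ± 0.05, Prpf3 of the U4/U6 snRNP by 0.34 ± 0.07 and the helicase Dhx15 by 0.34 ± 0.05. The largest falls were those of the U1 protein Snrpc (-0.63 ± 0.10), the Sm protein Snrpd2 (-0.37 ± 0.13) and the U2 snRNP protein Sf3b5 (-0.37 ± 0.11). Of 18 genes whose transcripts the regulators are known to act on, 9 rose and 2 fell (median 0.13). The potassium channel Kcnj6 (0.53 ± 0.09), the calcium channel Cacna1d (0.30 ± 0.06) and the scaffold Tanc2 (0.27 ± 0.08) rose, whereas Dlg4, which encodes PSD-95 and carries an exon repressed by PTBP proteins, fell (-0.36 ± 0.04), as did the NMDA receptor subunit Grin1 (-0.21 ± 0.05). These are gene levels, and exon inclusion was not measured in the values used here.

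With the length and GC trend removed, the counts of higher and lower genes became 2 and 3 for the paralogs, 7 and 0 for the SR proteins, 4 and 3 for the hnRNP proteins, 10 and 5 for the core spliceosome and 4 and 3 for the target genes, while over all genes 33.6% passed (2713 higher and 3204 lower). The median log2 fold changes became 0.010, 0.096, 0.036, 0.036 and 0.065 in the same order, against -0.0041 for all genes. Of the genes named, Celf2, Elavl4, Msi1, Hnrnpu, Raly, Hnrnpul1, Snrpd2, Tanc2 and Grin1 then no longer passed. With libraries scaled to the same total the counts were 9 and 1, 12 and 0, 13 and 1, 9 and 6, and 10 and 2, while over all genes 38.5% passed (4038 higher and 2730 lower). Under that scaling Msi1, Hnrnpul1 and Pcbp1 no longer passed. Snrpd2 failed the test in 5 of the 12 fits that left out 1 library. No gene of these lists passed in any comparison of KO with WT.

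**Figure D5:**
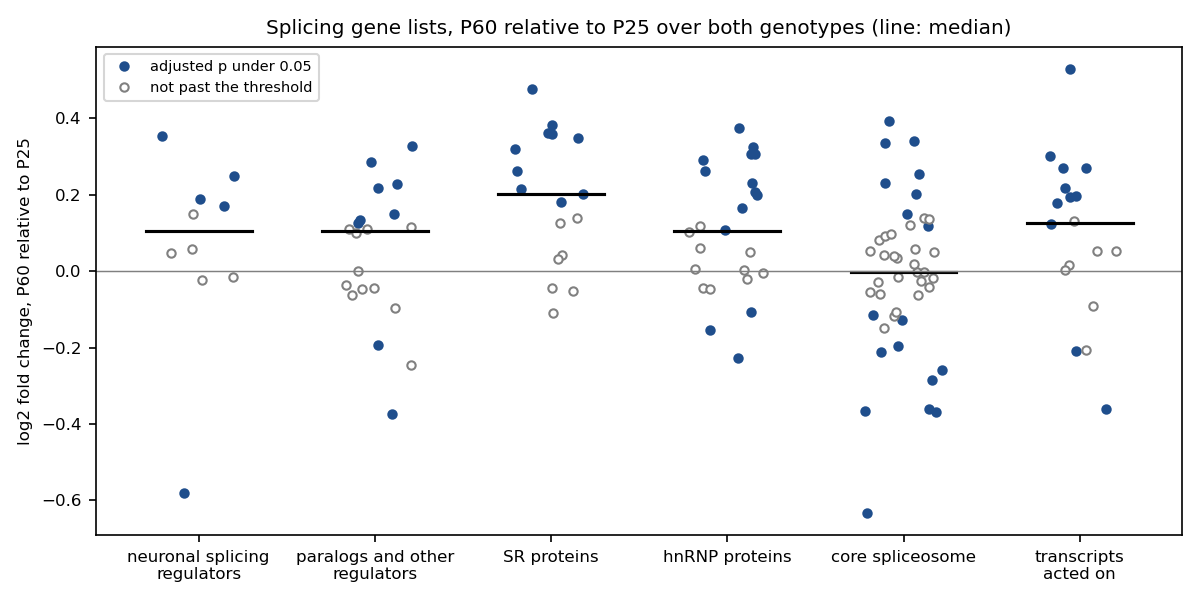
Log2 fold change of each gene, P60 relative to P25 over both genotypes (vertical axis), in the 10 neuronal splicing regulators and 5 other lists. The lists, of splicing genes and of genes whose transcripts the regulators act on, are on the horizontal axis. Points are spread sideways for legibility and filled where the adjusted p was under 0.05, with the median as a line. In the SR proteins 10 of 17 points are filled and all 10 lie above 0, whereas in the core spliceosome 8 filled points lie above 0 and 10 below.

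The genes most like each regulator over the 12 libraries were found by Pearson r of log2(normalized count + 1), a description in which the age difference and library deviations are shared by all 12 points. The 2 closest to Nova2 were Aacs (r = 0.99), which activates acetoacetate for lipid synthesis, and Adamts4 (r = 0.99), a protease that cleaves proteoglycans, and 536 of the 17593 other genes reached 0.9. Upf2, a nonsense-mediated decay factor (r = 0.99), and Khdc4 (r = 0.98) were closest to Mbnl2, which had 625 such genes. Ccar1 (0.99) and Fndc3a (0.98) were closest to Rbfox2, Dgkh (0.98) and Dock4 (0.98) to Rbfox1, and Mapk10 (0.96) and Camta1 (0.96) to Ptbp2. The regulators that did not pass with age had few close neighbours, 1 to 20 genes at 0.9 or more: Dpf2 (0.94) and Usp19 (0.93) for Ptbp1, Eps15l1 (0.94) and Cyp3a13 (0.91) for Srrm4, Mthfd1 (0.94) and Tnik (0.86) for Rbfox3, Trappc12 (0.92) and Ppp2r3a (0.88) for Nova1, and Rnpep (0.91) and Cd209c (0.85) for Celf4.

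Within a group the regulators varied less than the typical gene. Their median coefficient of variation over 3 libraries was 4.83% in P25-KO, 7.60% in P25-WT, 4.30% in P60-KO and 5.34% in P60-WT, against 7.81%, 12.2%, 8.07% and 8.09% over all genes tested. The regulators are abundant transcripts: by mean value they stood between the 68.2 percentile (Ptbp1) and the 98.6 percentile (Celf4) of the table.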

How the data were processed

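Forebrain RNA of 12 mice was sequenced by the authors as TruSeq libraries, quantified with Salmon with GC correction (version 1.1.0 in the submitters' processing notes, GRCm38) and normalized with tximport and DESeq2 (1.26.0, R 3.6.2). The deposited signal is on a count scale, is not whole reads and was normalized over all 12 libraries, so the depth is unknown, no count model was fitted and the number of libraries limits the precision. Groups came from the sample titles. limma 3.58.1 in R 4.3.3 (lmFit, eBayes with an intensity trend) was run on log2(value + 1) over genes with a mean of at least 10 in the libraries fitted, with Benjamini-Hochberg adjustment over all genes tested. Such fold changes understate the change of low genes. Comparisons within an age or genotype used its 6 libraries, and those over both used all 12 with the other factor as a term. The length and GC trend was a spline with 5 degrees of freedom. The scripts were tested on simulated data. Symbols came from GENCODE M21 (19252 of 19268 identifiers matched). Named genes were the 10 regulators, up to 3 genes per direction of each pathway list with the largest change among those past the threshold with age, and the 2 genes most correlated with each regulator. The regulators and lists were chosen with earlier results of these data known. Replicate numbers were not used to pair the libraries in the main fits. Same-numbered libraries correlated in their deviations by -0.07 to 0.17. Differently numbered libraries were not compared, so whether the numbers pair the libraries was not settled. Exon-level values were not analysed here.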

Additional observations from a re-analysis of the deposited data

How the results depend on the processing

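Over both genotypes, the calls with age for Nova2, Mbnl2, Rbfox2, Rbfox1 and Ptbp2 kept their direction when any 1 library was left out and under every other alternative run. They passed in all of these, except that Rbfox1 and Ptbp2 did not pass with the length and GC trend removed. The count of regulators that passed with age within WT was 2, but 0 without the intensity trend, 1 with the length and GC trend removed, 5 with all 12 libraries in the fit and 0 to 3 with 1 library left out. Within KO it was 2, and 4 with the length and GC trend removed. With 1 library left out, Rbfox2 also passed within KO in 1 of 6 fits (lowest adjusted p = 0.0309, limma). The cause was not tested. Over all genes, the count within WT was 1521, with 122 (without P60-WT replicate 3) to 2403 (without P25-WT replicate 2) when 1 library was left out, 192 without the intensity trend and 3442 with all 12 libraries in the fit. Within KO it was 3641, with 2093 without P25-KO replicate 3 and 1725 without the trend. For KO against WT it was 1 at each age, with 0 to 8 at P25 and 0 to 3 at P60. With every library scaled to the same total, the share of higher genes went from 42.3% to 59.3% within WT and from 45.3% to 56.5% within KO. With a replicate block, Rbfox2 also passed within WT (0.28, adjusted p = 0.0386, limma) and the count there was 3, with no other call of a regulator changed.

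Small values changed sign. With libraries scaled to the same total they were 0.011 (Rbfox1) and 0.0038 (Ptbp2) for KO against WT at P25, 0.0023 (Nova1) and 0.050 (Celf4) for age within WT, and 0.028 (Nova1) and 0.021 (Celf4) over both genotypes. With the length and GC trend removed they were 0.018 (Rbfox2), 0.0035 (Nova2) and 0.019 (Mbnl2) for KO against WT at P60, -0.052 (Srrm4) for age within WT, -0.19 (Nova1) within KO and 0.065 (Pcbp1) over both genotypes. With 1 library left out, log2 fold changes that reversed had these ranges. For KO against WT at P25, Rbfox1 -0.062 to 0.032, Rbfox2 -0.029 to 0.10, Rbfox3 -0.014 to 0.081, Nova2 -0.027 to 0.086, Ptbp1 -0.12 to 0.064, Ptbp2 -0.059 to 0.038, Srrm4 -0.20 to 0.078, Mbnl2 -0.043 to 0.086. At P60, Rbfox2 -0.096 to 0.046, Rbfox3 -0.024 to 0.055, Nova1 -0.046 to 0.069, Nova2 -0.059 to 0.0067, Ptbp1 -0.047 to 0.040, Celf4 -0.025 to 0.034, Mbnl2 -0.048 to 0.033. Over both ages, Rbfox2 -0.019 to 0.049, Rbfox3 -0.00020 to 0.046, Nova2 -0.025 to 0.027, Ptbp1 -0.054 to 0.027, Srrm4 -0.042 to 0.080, Mbnl2 -0.020 to 0.038. For the interaction, Rbfox1 -0.12 to 0.0034, Rbfox2 -0.15 to 0.018, Rbfox3 -0.070 to 0.025, Nova2 -0.11 to 0.0022, Ptbp1 -0.066 to 0.12, Mbnl2 -0.087 to 0.042. For age within WT, Srrm4 -0.16 to 0.11, Celf4 -0.024 to 0.035. For age within KO, Nova1 -0.032 to 0.072. For age over both genotypes, Nova1 -0.041 to 0.0063, Srrm4 -0.0070 to 0.11. Among the ratios, Ptbp2 to Ptbp1 ran from -0.027 to 0.071 with age and -0.079 to 0.018 with genotype, Nova2 to Nova1 from -0.011 to 0.081 with genotype, and Rbfox3 to Rbfox1 from -0.18 to -0.10 with age, where 2 of the left-out libraries brought the adjusted p under the threshold. With the length and GC trend removed, an alternative chosen for the ratios after seeing the data, the age difference turned to -0.17 for Ptbp2 to Ptbp1 and to 0.091 for Rbfox3 to Rbfox1. Recomputed median-of-ratios factors were the deposited ones and moved nothing. The depth behind a value is unknown, and no detection limit is given.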
